A study of Mus musculus with 53 samples.

Results

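Loss of Insm1 was set beside joint loss of Tead1 and Tead2 in the mouse cerebellum at postnatal day 7 (P7), and each gene was described by its change under Insm1 loss minus its change under Tead1/2 loss. The data are 10 single-cell RNA-seq libraries, each from the cerebellum of 1 animal and together deposited as 1 of the 53 samples of the series. Mutants carried Atoh1Cre with homozygous floxed Insm1 (Insm1fl/fl) or with homozygous floxed Tead1 and Tead2 (Tead1fl/fl;Tead2fl/fl). Controls of each line carried the floxed alleles without Cre, with 2 controls and 3 mutants per line. Library 1 of every group held all lobules, and libraries 2 and 3 were taken without lobules IX and X. Atoh1 is active in granule neuron progenitors and other rhombic lip derivatives, so most other cells of the tissue keep the genes. No Cre control without floxed alleles was among these groups, so a change seen under both deletions and an effect of Cre itself cannot be told apart. The controls come from different floxed lines, and line and allele cannot be told apart either. Control levels are therefore given for many of the genes below, though not for all.

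INSM1 is a zinc finger factor of neural and neuroendocrine progenitors that recruits repressor complexes to its target genes. TEAD factors bind a short DNA element known as M-CAT, take up the coactivators YAP and TAZ, and are known for driving many muscle genes from it. Granule neurons are born after birth in the outer layer of the cerebellum from progenitors that divide under Sonic hedgehog, and do not normally express sarcomere genes, which in embryonic muscle are switched on by MYOD1 and its relatives through E-box elements.

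Raw transcript counts were summed per library over barcodes with at least 1000 transcripts and 500 genes. This kept 79855 of 2894626 barcodes, 4779 to 10711 per library, and 90283508 to 211734358 transcripts per library. The libraries shared 0 barcodes, and no doublets were removed. CPM are counts scaled to a common library total after adjustment of the totals by TMM normalisation factors, unless said otherwise. Counts of granule neuron list genes summed to between 14051 and 25627 CPM over the libraries, lowest in the Tead1/2 mutants. Of 57010 genes, 24602 passed the low-count filter and were tested with edgeR's quasi-likelihood test. A gene is said to have changed, or to be called, at a Benjamini-Hochberg adjusted p under 0.05 over all genes tested. Errors after ± are standard errors of log2 values, and levels are CPM. Sums over cells do not tell fewer cells of a type from less RNA per cell.

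Counts over whole genes do not measure the deleted exons alone. In its own line Insm1 went from 58.2 and 56.3 CPM in controls to 14.5, 5.72 and 7.67 CPM in mutants. The Tead1/2 line had Insm1 levels of 75.2 and 80.0 CPM in controls and of 28.1, 55 and 54.3 CPM in mutants. The Insm1 groups did not overlap, and Insm1 fell by 2.63 ± 0.36 on the log2 scale there (adjusted p = 0.00031). Its change in the Tead1/2 mutants was -0.76 ± 0.35 (adjusted p = 0.096), and the difference between the deletions, -1.87 ± 0.50, missed the threshold (adjusted p = 0.075). Tead2 stood at 30.1 and 31.9 CPM in the Tead1/2 controls and at 9.15, 7.65 and 7.26 CPM in the mutants, and at 64.9 and 63.1 CPM against 49.2, 48.0 and 47.3 CPM in the Insm1 line. Tead2 therefore fell under both deletions, by 1.95 ± 0.09 in the Tead1/2 line and by 0.41 ± 0.09 in the Insm1 line, and its control level was already lower in the Tead1/2 line. Tead1 rose under both, by 0.93 ± 0.07 in the Tead1/2 mutants and 0.32 ± 0.07 in the Insm1 mutants, so its summed count does not report the deletion. The remaining family member with a large change was Tead4, which is expressed in muscle precursors. It went from 1.64 and 1.25 CPM to 95.2, 105 and 81.2 CPM in the Tead1/2 line and from 1.30 and 1.58 CPM to 41.2, 41.7 and 44.6 CPM in the Insm1 line. In sums without barcodes that held muscle transcripts, defined below, the Insm1 change of Tead1 was 0.16 ± 0.06 and not called, and the difference of Tead4 went from -1.13 to 0.22 ± 0.18 and was not called.

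The changes under the deletions shared their sign for most genes and differed mainly in size. Insm1 loss changed 8345 genes, 33.9% of those tested (18.6% higher and 15.4% lower), and Tead1/2 loss changed 11958, or 48.6% (25.9% higher and 22.7% lower). Of the 7131 genes called under both deletions, 7096 had the same sign and 35 the opposite sign. The difference between the deletions was called for 906 genes, 3.68% of those tested, of which 371 (1.51%) were more positive and 535 (2.17%) more negative under Insm1 loss. Among these 906, 622 changed in the same direction under both deletions, and 594 of the 622 changed more under Tead1/2 loss. Over all 7096 genes called under both with the same sign, whether or not the difference was called, 5680 had the larger change under Tead1/2 loss and 1416 under Insm1 loss. A further 164 were called under Tead1/2 loss with an unadjusted p of at least 0.05 under Insm1 loss, here named Tead1/2 alone. The converse class, Insm1 alone, held 45 genes, 40 of them rising. In 34 genes the deletions moved the level in opposite directions, in 28 of them up under Insm1 loss and down under Tead1/2 loss. The last 41 genes met none of these rules. Without 1 library at a time the classes held 144 to 846 genes (same direction), 23 to 251 (Tead1/2 alone), 7 to 54 (Insm1 alone) and 14 to 44 (opposite).

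**Figure D1:**
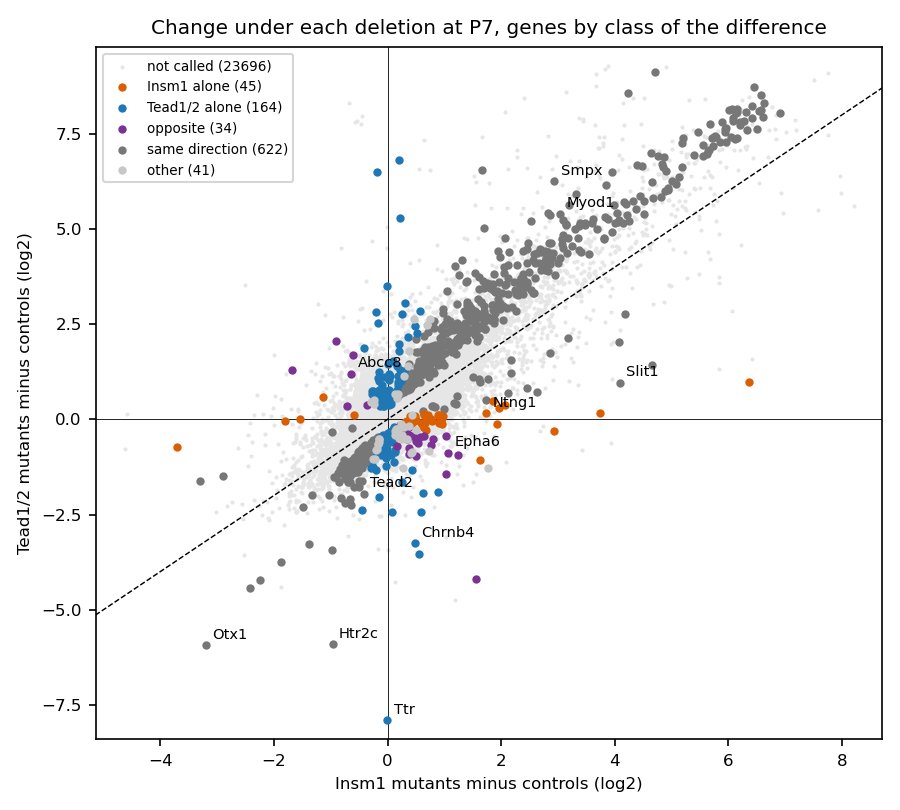
Change of each of the 24602 tested genes under Insm1 loss (x axis, log2) and Tead1/2 loss (y axis, log2) at P7, with the dashed line at equal change. Rising genes called in the difference lie mostly above the line and falling ones mostly below it, while Slit1, Ntng1 and Epha6 lie on the Insm1 side.

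The number of called genes depended on single libraries and on which barcodes were summed, and the sign changed for fewer genes. Leaving out 1 library at a time gave 195 to 1192 genes, with the lowest number without Tead1/2 control 2, and 903 of the 906 kept their sign in all 10 such fits. The number was 319 without Insm1 control 2, 371 without Tead1/2 control 1, 437 without Tead1/2 mutant 2, and 524, 453 and 537 without Insm1 mutants 1, 2 and 3. In all 10 fits 164 genes were called, among them 128 of the same direction class, 13 of the opposite class, 13 of Tead1/2 alone and 6 of Insm1 alone. Sex, read from Xist and Ddx3y, was unevenly spread over the groups. Both Tead1/2 controls read as female and Tead1/2 mutants 1 and 2 as male, so sex goes in part with the Tead1/2 change. Both groups of the Insm1 line held both sexes. With a sex term 229 genes were called. All 906 genes kept the sign of their difference in that fit. They were picked by this contrast in these same libraries, which favours a kept sign here and without 1 library. In the fits without 1 library no gene changed sign, and those not counted there had fallen below the low-count filter. Not called with the sex term, among others, were Vat1l, Adamts18, Epha5, Gabbr2, Adgrb2, Camsap3, Ogn, Ccn2, Wwtr1, Chrna1, Mycn, Rbfox3, Gad1 and Pax2. Of the 64 named genes called in the difference, 30 remained called in each fit that left out 1 library and 34 with a sex term. Muscle transcripts also moved with the groups. Barcodes with transcripts of at least 3 of 24 muscle-restricted genes were 2.31% and 4.35% of kept barcodes in the Insm1 controls and 1.66% and 2.09% in the Tead1/2 controls. They were 21.8%, 24.6% and 30.2% in the Insm1 mutants and 29.2%, 47.0% and 32.7% in the Tead1/2 mutants. These barcodes were deep and held a larger share of the transcripts: 13.7% and 28.8% in Insm1 controls, 8.44% and 8.56% in Tead1/2 controls, 53.9% to 66.6% in Insm1 mutants and 54.7% to 77.4% in Tead1/2 mutants. Their median depth was 47830 to 112964 transcripts in the 4 controls, against 6918 to 8216 in the other control barcodes. Summed without those barcodes, an alternative chosen after the data were seen, 51 genes were called (0.238% of 21385), and 47 of these were among the 906. Of the 883 genes of the 906 still tested there, 812 kept the sign of their difference. The values without these barcodes stand beside most of the named genes and lists below.

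Of the genes called under Insm1 loss alone, the 6 named for the size of their rise had Tead1/2 changes between -0.11 and 0.17, none of them called. Ntng1, which encodes the axonal membrane protein netrin-G1, went from 68.9 and 80.5 CPM in controls to 243, 275 and 226 CPM in mutants of the Insm1 line. In the Tead1/2 line it stood at 73.1 and 73.5 CPM in controls and at 84.8, 89.2 and 73.6 CPM in mutants. Only the Insm1 mutants were high, and the other 3 groups lay between 68.9 and 89.2 CPM. Ntng1 rose by 1.73 ± 0.11 on the log2 scale under Insm1 loss, against 0.17 ± 0.10 under Tead1/2 loss (difference 1.56 ± 0.15, adjusted p = 0.0016). Epha5, an ephrin receptor, stood at 28.7 and 41.0 CPM in Insm1 controls and 57.5, 64.9 and 73.8 CPM in Insm1 mutants, and at 23.7 to 29.1 CPM in all libraries of the Tead1/2 line. Its difference was 1.01 ± 0.21 (adjusted p = 0.032). Qsox1, a sulfhydryl oxidase of the secretory pathway, differed by 0.90 ± 0.14, Adamts18, a secreted metalloprotease, by 0.81 ± 0.15, and Vat1l by 0.93 ± 0.20. Qsox1 was higher in the Tead1/2 controls (49.6 and 46.3 CPM) than in the Insm1 controls (30.4 and 30.9 CPM), and the Insm1 mutants, at 51.6 to 65.2 CPM, came to near the Tead1/2 mutants, at 47.0 to 53.6 CPM.

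The difference between the deletions was smaller for these genes in sums without muscle barcodes. They were picked by their values over all barcodes, which favours a smaller difference in another sum. Whether the drop exceeded error was not tested. Without the muscle barcodes, Ntng1 rose under both deletions, by 1.97 ± 0.13 under Insm1 loss and by 0.59 ± 0.12 under Tead1/2 loss (adjusted p = 0.0041), and its difference of 1.38 ± 0.17 was still called (adjusted p = 0.010). Qsox1, Vat1l, Cfap61 and Adamts18 likewise rose under Tead1/2 loss in those barcodes, by 0.44 ± 0.10, 0.49 ± 0.16, 0.25 ± 0.07 and 0.61 ± 0.09. Epha5 did not pass there under Tead1/2 loss (0.25 ± 0.16, adjusted p = 0.26). The differences of Qsox1, Vat1l, Adamts18 and Epha5 in those barcodes were 0.70 ± 0.13, 0.69 ± 0.22, 0.58 ± 0.13 and 0.90 ± 0.23. None of them was called (adjusted p from 0.083 to 0.29).

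Cfap61, a gene of cilia and flagella, lies next to Insm1 in the order of tested genes along the chromosome. It went from 59.0 and 55.5 CPM to 106, 120 and 106 CPM in the Insm1 line, and the Tead1/2 line held 51.5 and 48.8 CPM in controls and 43.8, 46.7 and 48.6 CPM in mutants. The difference of 1.07 ± 0.10 (adjusted p = 0.0016) was called in each fit that left out 1 library, and was 0.89 ± 0.10 (adjusted p = 0.0083) without muscle barcodes. After the values were seen, the 4 nearest tested neighbours of Insm1 were looked at together, and all 4 were called in the difference. The long noncoding A930019D19Rik, on the other side, rose by 0.95 ± 0.15 under Insm1 loss against 0.03 ± 0.15 under Tead1/2 loss. Its control level was higher in the Insm1 line by 0.66 ± 0.16. Crnkl1 and Ralgapa2 fell under Tead1/2 loss, by 0.33 ± 0.06 and 0.55 ± 0.08, and their changes under Insm1 loss were 0.04 ± 0.06 and 0.02 ± 0.08. Over the 25 tested genes on each side of Insm1, 5 of 50 were called in the difference, against 4.21% of the 20258 tested genes that could be placed in chromosome order. Around Tead1 and Tead2 these counts were 1 and 3 of 50.

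Under Tead1/2 loss alone, the named genes that fell included Ndst4, Btbd11, Gabbr2, Adgrb2 and Camsap3, and those that rose included Mgat4c, Ndufc1, Uqcrq, Cox7b and Ogn. They were named for the size of their change, and no list of receptor or respiratory chain genes was counted. Ndst4, an enzyme that modifies heparan sulfate chains, stood at 76.6 and 77.4 CPM in the Tead1/2 controls and at 25, 16.2 and 14.9 CPM in the mutants. In the Insm1 line it stood at 109 and 104 CPM in controls and at 93.7, 110 and 85.2 CPM in mutants, which overlap. The difference was 1.90 ± 0.27 (adjusted p = 0.0077), and 1.82 ± 0.30 (adjusted p = 0.046) without muscle barcodes. Btbd11 stood at 402 and 367 CPM in Tead1/2 controls and at 211, 202 and 194 CPM in mutants, against 344 to 413 CPM in all 5 Insm1 libraries, and its difference of 0.98 ± 0.11 was 1.04 ± 0.16 without muscle barcodes (adjusted p = 0.0029 and 0.041). Gabbr2, a subunit of the GABA-B receptor, fell by 0.90 ± 0.12 under Tead1/2 loss, Adgrb2, an adhesion receptor, by 1.25 ± 0.16, and Camsap3, which caps microtubule minus ends, by 0.88 ± 0.08. Their Insm1 changes lay between -0.25 and -0.02. Their differences were 0.88, 1.00 and 0.69, and without muscle barcodes 0.64 ± 0.15, 0.92 ± 0.24 and 0.57 ± 0.12, which were not called (adjusted p from 0.12 to 0.19), while all 3 falls under Tead1/2 loss remained called.

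Mgat4c, related to enzymes that branch N-glycans, showed the opposite course. It stood at 57.3 and 57.6 CPM in Tead1/2 controls and 109, 130 and 128 CPM in Tead1/2 mutants, and at 99.5 and 120 CPM against 96.8, 91.5 and 104 CPM in the Insm1 line. The Tead1/2 controls alone were low, and the mutants of that line came to near the level of both Insm1 groups. Its difference of -1.26 ± 0.14 was -1.48 ± 0.14 without muscle barcodes (adjusted p = 0.0027 in both). Ndufc1 of complex I, Uqcrq of complex III and Cox7b of complex IV rose by 1.03 ± 0.13, 1.00 ± 0.16 and 0.77 ± 0.10 under Tead1/2 loss. Ndufc1 went from 4.94 and 5.0 CPM to 9.07, 10.9 and 10.4 CPM. In the Insm1 line it lay between 7.48 and 9.83 CPM in all libraries, so that the Tead1/2 controls were again the low group. Without muscle barcodes the Tead1/2 changes of these 3 genes were 0.21 ± 0.20, 0.00 ± 0.29 and -0.19 ± 0.16, and none was called. Ogn, an extracellular proteoglycan on the meninges list, rose from 3.48 and 2.73 CPM to 9.29, 10.3 and 13.1 CPM under Tead1/2 loss and lay between 3.36 and 5.64 CPM in the Insm1 line. Its difference of -1.61 ± 0.30 was -1.22 ± 0.47 without muscle barcodes and not called (adjusted p = 0.35), and its rise under Tead1/2 loss remained called there. The 10 meninges markers together summed to 180 to 189 CPM in Tead1/2 controls, 279 to 532 CPM in Tead1/2 mutants, 183 to 188 CPM in Insm1 controls and 199 to 280 CPM in Insm1 mutants, and their part in the rise of Ogn was not tested.

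**Figure D2:**
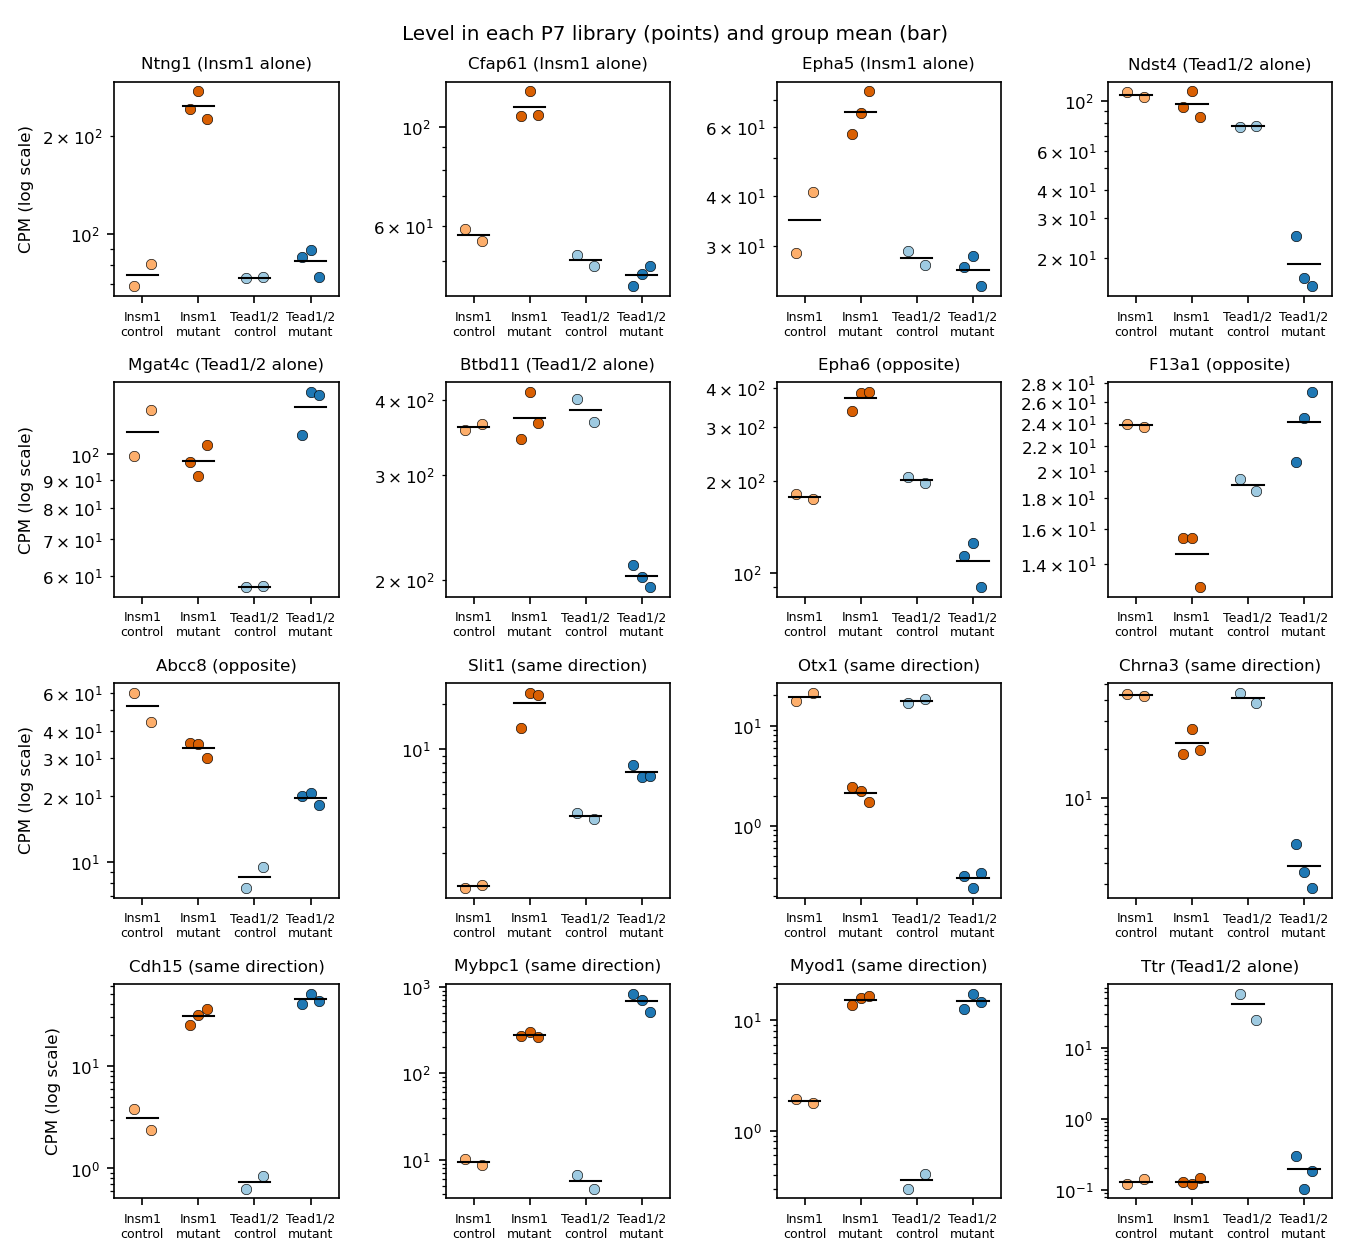
Level of 16 named genes in each of the 10 P7 libraries (points, CPM, log axes that differ between panels) with group means as bars. Ntng1 and Cfap61 are high in the Insm1 mutants alone, and Ndst4 and Btbd11 are low in the Tead1/2 mutants alone. The control groups of the lines differ for Mgat4c, Abcc8, Slit1, Cdh15, Myod1 and Ttr, among others.

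Among named genes with opposite changes, Epha6, an ephrin receptor, had the largest difference. It went from 181 and 174 CPM to 338, 387 and 389 CPM in the Insm1 line, and from 206 and 196 CPM to 114, 125 and 90.1 CPM in the Tead1/2 line. The controls of the lines were close, the Insm1 mutants lay above all controls and the Tead1/2 mutants below all controls. It rose by 1.07 ± 0.12 under Insm1 loss and fell by 0.88 ± 0.12 under Tead1/2 loss (difference 1.94 ± 0.17, adjusted p = 0.0010). Without muscle barcodes both changes remained called, at 1.25 ± 0.16 and -0.55 ± 0.15. Ano3, a member of the anoctamin membrane proteins, rose by 0.38 ± 0.13 and fell by 0.90 ± 0.13, and Dlgap2, a postsynaptic scaffold protein, rose by 0.38 ± 0.11 and fell by 0.75 ± 0.11. Their changes were called in both directions without muscle barcodes too, at 0.58 ± 0.14 and -0.65 ± 0.14 for Ano3 and 0.57 ± 0.12 and -0.50 ± 0.11 for Dlgap2. Olfm3, a secreted olfactomedin protein, rose by 0.65 ± 0.13 and fell by 0.43 ± 0.13, and without muscle barcodes its Tead1/2 change was 0.06 ± 0.12 and its difference of 0.87 ± 0.17 was not called (adjusted p = 0.083).

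F13a1 and Abcc8 moved the other way. F13a1, the coagulation factor XIII subunit found in macrophages, stood at 24 and 23.7 CPM in Insm1 controls and 15.4, 15.4 and 12.8 CPM in Insm1 mutants, and at 19.4 and 18.5 CPM against 20.7, 24.5 and 27 CPM in the Tead1/2 line. Its difference was -1.06 ± 0.16 (adjusted p = 0.0096). Without muscle barcodes it was -1.52 ± 0.21 and called, with an Insm1 change of -0.36 that was not (adjusted p = 0.11). The microglia list of 10 genes summed to 105 to 125 CPM in Insm1 controls and 198 to 250 CPM in their mutants, against 243 to 441 CPM and 354 to 515 CPM in the Tead1/2 line, and its part in F13a1 was not tested. Abcc8, the sulfonylurea receptor of potassium channels, stood at 59.9 and 43.8 CPM in Insm1 controls and 35.4, 34.7 and 30.1 CPM in Insm1 mutants, against 7.61 and 9.52 CPM in Tead1/2 controls and 20.2, 20.7 and 18.2 CPM in Tead1/2 mutants. The fall in one line and the rise in the other brought levels closer: the control lines differed by 2.60 ± 0.16 and the mutants by 0.76. The difference of Abcc8, -1.84, was -1.69 ± 0.21 and called without muscle barcodes.

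Among genes that changed in the same direction, Chrna3, a neuronal nicotinic receptor subunit, fell more under Tead1/2 loss, and its gene neighbour Chrnb4 was called under Tead1/2 loss alone. Chrna3 stood at 44.5 and 38.6 CPM in Tead1/2 controls and 5.28, 3.52 and 2.83 CPM in Tead1/2 mutants, and at 43.5 and 42.2 CPM against 18.8, 26.8 and 19.8 CPM in the Insm1 line. It fell by 3.44 ± 0.23 and 0.98 ± 0.21, with control levels alike (difference 2.46 ± 0.32, adjusted p = 0.0063). Chrnb4, of the Tead1/2 alone class, stood at 6.90 and 4.99 CPM in Tead1/2 controls and 0.876, 0.601 and 0.435 CPM in the mutants, against 4.94 and 4.81 CPM and 4.83, 8.62 and 6.86 CPM in the Insm1 line (difference 3.73 ± 0.40, adjusted p = 0.0023). Otx1, a homeobox factor, stood at 16.9 to 21.3 CPM in all 4 controls. Insm1 mutants had 2.44, 2.23 and 1.72 CPM and Tead1/2 mutants 0.318, 0.240 and 0.334 CPM, a difference of 2.74 ± 0.24 (adjusted p = 0.0010). Without muscle barcodes the differences of Chrna3, Chrnb4 and Otx1 were 2.26 ± 0.33, 3.75 ± 0.41 and 2.64 ± 0.23, and all were called. Of the 7 neuronal nicotinic subunit genes tested, these 2 were called in the difference, both more positive, against 1.51% of all genes in that direction.

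Of the 456 genes that rose under both deletions and were also called in the difference, 24 rose more under Insm1 loss. Slit1, a secreted ligand of ROBO receptors in axon guidance, stood at 1.17 and 1.22 CPM in Insm1 controls and 13.7, 23.9 and 23.2 CPM in Insm1 mutants. In the Tead1/2 line it stood at 3.73 and 3.40 CPM in controls and 7.82, 6.52 and 6.63 CPM in mutants. The rise was 4.08 ± 0.24 against 0.97 ± 0.21 (difference 3.12 ± 0.30, adjusted p = 0.0017), of which 1.58 ± 0.24 lay in the lower level of the Insm1 controls and 1.54 in the higher level of the mutants. Grin2c, the NMDA receptor subunit of maturing granule neurons, went from 0.607 and 0.458 CPM to 6.90, 10.3 and 9.71 CPM under Insm1 loss and from 0.696 and 0.697 CPM to 2.82, 2.89 and 2.79 CPM under Tead1/2 loss (difference 2.05 ± 0.26, adjusted p = 0.0064). Both remained called without muscle barcodes, at 2.97 ± 0.30 and 1.78 ± 0.28. Etv1, of the Insm1 alone class and the granule neuron list, rose by 0.65 ± 0.09 under Insm1 loss against 0.13 ± 0.09. Its difference was 0.52 ± 0.12 (adjusted p = 0.0497). Without muscle barcodes it rose under Tead1/2 loss too, by 0.41 ± 0.10, and its difference of 0.46 ± 0.13 was not called (adjusted p = 0.24). With a sex term the difference was 0.54 and not called (adjusted p = 0.13).

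Muscle genes rose under both deletions and more under Tead1/2 loss. Of 40 sarcomere genes tested, 39 rose under Insm1 loss and 40 under Tead1/2 loss (18.6% and 25.9% over all genes), with median changes of 5.69 and 7.33. The difference was called for 27 of the 40, all more negative, against 2.17% of all genes called in that direction, with a median of -1.64 against 0.00 over all genes tested. The list was chosen with earlier results of these libraries known and is no independent evidence of its direction. Their summed level was 95.9 to 115 CPM in Insm1 controls and 91.5 to 101 CPM in Tead1/2 controls, 7018 to 8253 CPM in Insm1 mutants and 15877 to 25485 CPM in Tead1/2 mutants. Mybpc1, myosin-binding protein C of slow fibres, stood at 267, 298 and 261 CPM in Insm1 mutants and 832, 697 and 514 CPM in Tead1/2 mutants, with 10.3 and 8.57 CPM and 6.68 and 4.63 CPM in the controls. The mutant groups did not overlap, and its difference was -2.04 ± 0.28 (adjusted p = 0.0072). Tnnt3, fast troponin T, reached 72.0, 78.4 and 70.2 CPM against 282, 249 and 175 CPM, and Klhl41, a stabiliser of nebulin, 89.0, 88.8 and 85.0 CPM against 200, 209 and 155 CPM.

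Excitation-contraction and endplate genes followed the same order. The difference was called for 11 of 15 excitation-contraction genes and 5 of 9 neuromuscular junction genes, all more negative, against 2.17% of all genes in that direction, with medians of -1.23 and -1.16. Ryr1, the calcium release channel of skeletal muscle, stood at 155, 176 and 164 CPM in Insm1 mutants and 477, 457 and 306 CPM in Tead1/2 mutants, and Chrna1, the muscle acetylcholine receptor alpha subunit, at 11.2, 11.4 and 11.4 CPM against 36.3, 34.8 and 25.3 CPM. Of 20 myogenic regulators, 6 were called in the difference, all more negative (2.17% over all genes), with a median of -0.74. Mymk, the myoblast fusion protein, stood at 24, 24.9 and 22.3 CPM in Insm1 mutants and 43.6, 49.4 and 41.6 CPM in Tead1/2 mutants, with 0.146 to 0.276 CPM in the 4 controls. Among 20 genes of YAP and TEAD targets and cofactors, Ccn2, a textbook target of YAP, and Wwtr1, which encodes TAZ, were called, both rising more under Tead1/2 loss, against the same 2.17% (differences -1.82 ± 0.35 and -1.14 ± 0.25). Without muscle barcodes 0 of the 18 genes of this list still tested were called by edgeR: the difference was -1.68 ± 0.58 for Ccn2 (adjusted p = 0.31) and -0.38 ± 0.24 for Wwtr1 (adjusted p = 0.60).

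Muscle genes differed in whether single libraries followed the share of muscle barcodes. Within each line the 3 mutants had Cdh15 and Myod1 levels in the order of their shares of barcodes. By share of transcripts this order held in the Insm1 line only. Tead1/2 mutants 1, 2 and 3 had transcript shares of 55.1%, 77.4% and 54.7%, and mutant 1 had the lowest level of both genes. For Mybpc1 the order differed: the Tead1/2 mutant with a share of 29.2% had the highest Mybpc1 level, 832 CPM, and the Insm1 mutant with 30.2% had 261 CPM. The barcodes left out were picked by muscle genes, so a smaller muscle difference in the rest follows from that choice and is given as a description. There 0 of the 35 sarcomere genes still tested were called in the difference by edgeR, and their median difference was -0.50. Nor was any of 15 excitation-contraction and 7 neuromuscular junction genes called. The median sarcomere changes there were still 0.92 under Insm1 loss and 1.44 under Tead1/2 loss. Cdh15, M-cadherin, was the 1 myogenic regulator called there. It stood at 3.81 and 2.36 CPM in Insm1 controls and 0.637 and 0.851 CPM in Tead1/2 controls, and at 24.8, 31.6 and 35.8 CPM against 40.3, 50.8 and 43.1 CPM in the mutants. Its difference was -2.61 ± 0.33 in all barcodes and -2.14 ± 0.32 (adjusted p = 0.028) without muscle barcodes. Most of it lay in the controls, which differed by 2.07 ± 0.27 (adjusted p = 0.0042) over all barcodes, against -0.54 between the mutants. Without muscle barcodes the mutant means were 22.6 and 24.8 CPM and the control means 2.93 and 0.712 CPM. These means were scaled to the plain transcript totals of those barcodes, without TMM factors. Within the muscle barcodes alone, which were picked by muscle genes, levels were likewise scaled to plain totals. There Ryr1 had means of 272 CPM in Insm1 mutants and 689 CPM in Tead1/2 mutants, and Mybpc1 means of 453 and 1137 CPM. Tead1/2 mutants also had the highest share of mitochondrial transcripts, 1.07 to 1.73% against 0.62 to 0.92% in the other groups.

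**Figure D3:**
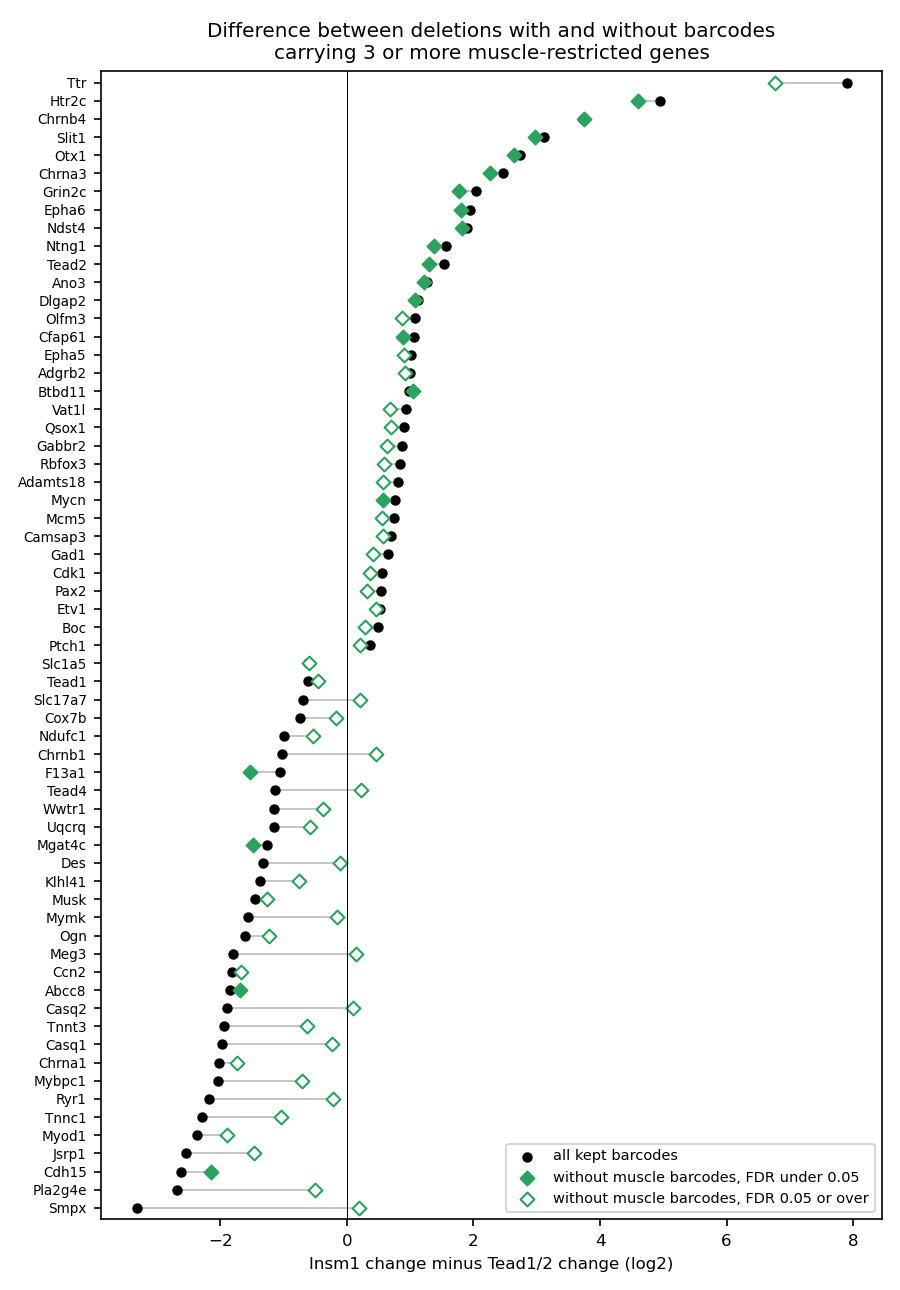
Difference between the deletions (x axis, Insm1 change minus Tead1/2 change, log2) for the named genes called at P7, over all kept barcodes (black) and without barcodes holding 3 or more muscle-restricted genes (green, filled where adjusted p is under 0.05). Chrnb4, Slit1, Otx1 and Epha6 keep their value, while Smpx, Ryr1 and Casq2 come to near 0.

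Lists of the granule lineage had smaller median falls under Insm1 loss than under Tead1/2 loss. Of 18 granule progenitor genes, 12 fell under Insm1 loss and 13 under Tead1/2 loss (15.4% and 22.7% over all genes), with median changes of -0.45 and -0.70. Without muscle barcodes these medians were -0.26 and -0.34, and the median difference went from 0.28 to 0.15. The difference was called for 3, all more positive, against 1.51% of all genes in that direction. Mycn, a Sonic hedgehog target that drives progenitor division, stood at 53.7 and 56.8 CPM against 40.8, 42.2 and 40.3 CPM in the Insm1 line and at 66.4 and 67.7 CPM against 26.0, 29.9 and 32.8 CPM in the Tead1/2 line (difference 0.75 ± 0.12, adjusted p = 0.011). It was called without muscle barcodes too, at 0.57 ± 0.09 (adjusted p = 0.035). With a sex term its difference of 0.70 just missed the threshold (adjusted p = 0.05003). Ptch1, the Sonic hedgehog receptor, was 317 to 338 CPM in all Insm1 libraries and fell by 0.36 ± 0.05 under Tead1/2 loss, and Boc, a coreceptor, fell by 0.19 ± 0.05 and 0.69 ± 0.05. Without muscle barcodes the Tead1/2 change of Ptch1 was -0.05 ± 0.06, and Boc had changes of 0.00 ± 0.07 and -0.29 ± 0.07 with a difference of 0.29 ± 0.11 that was not called (adjusted p = 0.33). Of 14 cell cycle genes, 13 fell under Insm1 loss and 14 under Tead1/2 loss, against the 15.4% and 22.7% of all genes. Mcm5 and Cdk1 were called as more positive in the difference (0.75 ± 0.11 and 0.56 ± 0.10), where 1.51% of all genes were. Without muscle barcodes 0 of the 14 were called in the difference by edgeR, with 0.56 ± 0.12 for Mcm5 (adjusted p = 0.12) and 0.36 ± 0.14 for Cdk1 (adjusted p = 0.35), and neither was called under Insm1 loss. The median difference of the list went from 0.29 to 0.07 there. For Mcm5 the mutants were alike, at 29.3 to 31.9 CPM and 26.8 to 30.3 CPM, and the Tead1/2 controls higher, at 61.5 and 66.8 CPM against 43.1 and 37.3 CPM.

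Of 20 granule neuron genes, 3 were more positive and 1 more negative in the difference, against 1.51% and 2.17% of all genes, and the median was 0.35. Without muscle barcodes 1 was more positive and the median was 0.21. Rbfox3, the neuronal nuclear protein NeuN, fell by 0.53 ± 0.14 and 1.37 ± 0.14. Without muscle barcodes its Insm1 change of -0.30 ± 0.14 and its difference of 0.58 ± 0.19 were not called (adjusted p = 0.14 and 0.29). Slc17a7, a vesicular glutamate transporter, fell under Insm1 loss by 0.60 ± 0.11 and its change of 0.10 ± 0.12 under Tead1/2 loss was not called, but it fell by 0.90 ± 0.13 there without muscle barcodes, where its difference changed sign to 0.21 ± 0.18 and was not called. Of the lists of other cells, Gad1 of the Purkinje list and Pax2 of the interneuron list were more positive in the difference (0.65 ± 0.14 and 0.54 ± 0.12), and 0 of 10 microglia, 12 astroglia, 12 oligodendrocyte and 10 vascular markers passed edgeR's threshold, against 3.68% of all genes. Each of 3 more lists had 1 called member: Ogn of 10 meninges genes, all 10 with a negative difference (median -0.77), Des of 10 smooth muscle genes, and Ttr of 8 choroid plexus and ependyma genes. Des, desmin, is also a gene of skeletal muscle, and without muscle barcodes 0 genes of these 3 lists were called by edgeR. Without muscle barcodes neither Gad1 nor Pax2 was called, and their Tead1/2 changes were positive (0.12 ± 0.09 and 0.22 ± 0.09).

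**Figure D4:**
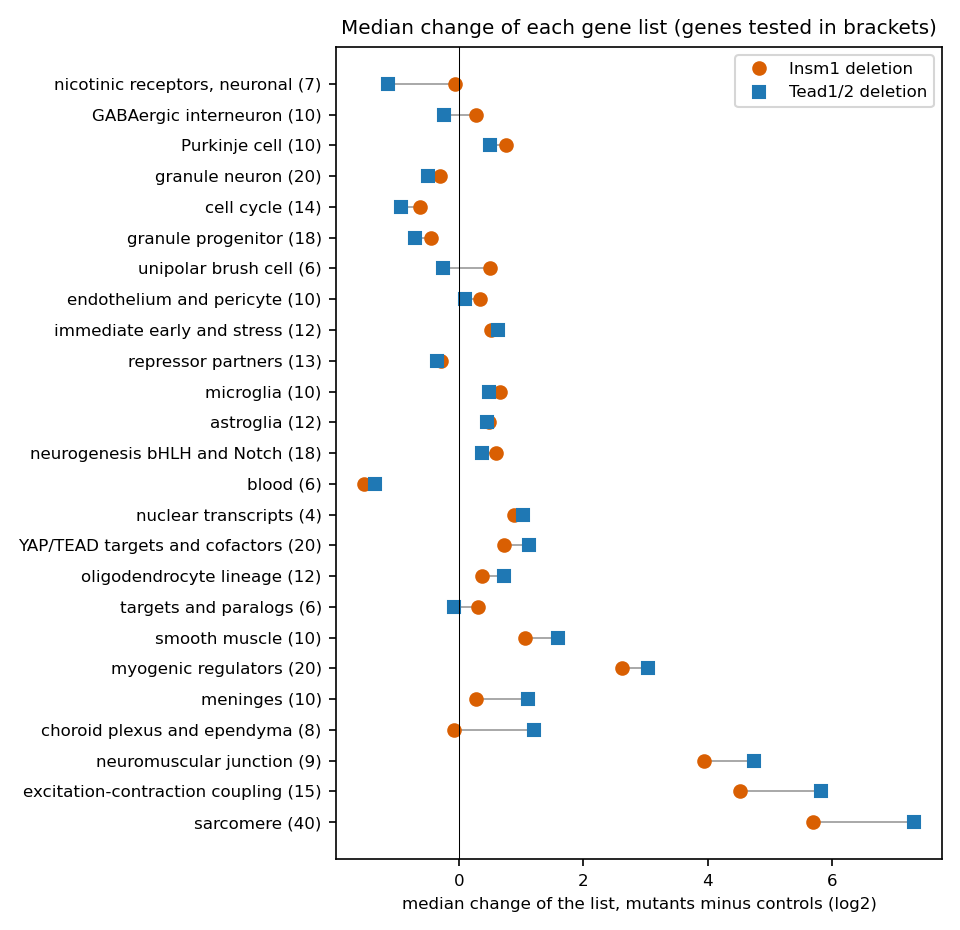
Median log2 change of each gene list under Insm1 loss (circles) and Tead1/2 loss (squares) at P7, with the number of genes tested in brackets. Muscle lists lie to the right with the squares beyond the circles, and progenitor and cell cycle lists lie to the left of 0 under both deletions.

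Control levels of the lines carried part of the called differences. Between the controls 1104 genes were called (4.49% of those tested), 487 (1.98%) higher in the Insm1 controls and 617 (2.51%) higher in the Tead1/2 controls. Of 12 immediate early and stress genes, 7 were higher in the Tead1/2 controls. That list summed to 134 to 168 CPM there and to 94.7 to 101 CPM in the Insm1 controls. Of 10 microglia genes 4 were higher in the Tead1/2 controls, and of 12 astroglia genes 4 were higher in the Insm1 controls. What lay behind these list gaps was not tested. Among the 906 genes of the difference, 154 were also called between the controls, and for 217 the gap between the control lines was larger than that between the mutants. By class, the control gap was the larger for 70 of 164 Tead1/2 alone genes and 12 of 45 Insm1 alone genes. It was so for 10 of 34 opposite and 110 of 622 same direction genes. In the same order of classes, 49, 10, 11 and 77 genes were called between the controls. These comparisons share the control libraries and their values are set side by side only. Myod1, the myogenic bHLH factor, is an example. It stood at 1.92 and 1.79 CPM in Insm1 controls and at 0.300 and 0.410 CPM in Tead1/2 controls, but at 13.6, 15.7 and 16.4 CPM and 12.4, 17.3 and 14.6 CPM in the mutants. The mutants overlapped and differed by 0.04, while the controls differed by 2.41 ± 0.21 (adjusted p = 0.00049), so the difference in its rise, -2.37 ± 0.24, lay in the control levels. Without muscle barcodes it was -1.90 ± 0.32, just outside the threshold (adjusted p = 0.05005).

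Ttr, transthyretin of the choroid plexus, and Htr2c, a serotonin receptor that is abundant there, were high in the Tead1/2 controls. Ttr stood at 58.0 and 24.9 CPM in these 2 libraries and at 0.104 to 0.296 CPM in the other 8. Htr2c stood at 42.9 and 23.8 CPM there, at 4.01 and 4.26 CPM in Insm1 controls, at 1.68, 2.38 and 2.29 CPM in Insm1 mutants and at 0.767, 0.439 and 0.523 CPM in Tead1/2 mutants. The difference was 7.89 ± 0.86 for Ttr, with a control gap of -8.30, and 4.95 ± 0.39 for Htr2c, with a control gap of -3.01. Without muscle barcodes the difference of Htr2c was called (4.60 ± 0.26), and that of Ttr was 6.76 ± 1.17 and not called (adjusted p = 0.059). The other 7 choroid plexus and ependyma markers summed to 12.5 and 6.95 CPM in the Tead1/2 controls and to 14.3, 20.3 and 24.8 CPM in their mutants, against 10.8 and 9.62 CPM and 14.6, 7.29 and 11.1 CPM in the Insm1 line. In this sum without Ttr the Tead1/2 controls overlapped both Insm1 groups and lay below the Tead1/2 mutants. Single markers differed: of the 8 genes, 2 were called higher in the Tead1/2 controls than in the Insm1 controls. Under Tead1/2 loss 2 of the 8 were called lower and 2 higher, and the median change was 1.21. Slc4a5, a bicarbonate transporter of the choroid plexus named after its values were seen, did go with Ttr: it stood at 2.05 and 1.61 CPM in the Tead1/2 controls and at 0.276 to 0.441 CPM in the other 8 libraries, and its difference of 2.53 ± 0.31 was 2.61 ± 0.35 without muscle barcodes (adjusted p = 0.018). Tmem72, also named after its values were seen, stood at 0.0386 and 0.0447 CPM in Insm1 controls and at 1.04 to 5.76 CPM in the other 8 libraries, with a difference of 5.39 ± 0.86, and of 6.16 ± 0.78 without muscle barcodes, where its Tead1/2 change went from 0.98 to -4.06. Cxcl14, a chemokine, gives the reverse case: it stood at 9.62 to 11.9 CPM in all Insm1 libraries and 1.46 to 1.78 CPM in all Tead1/2 libraries, a gap of 2.73 ± 0.13 between controls with a difference in effect of -0.02 ± 0.16.

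**Figure D5:**
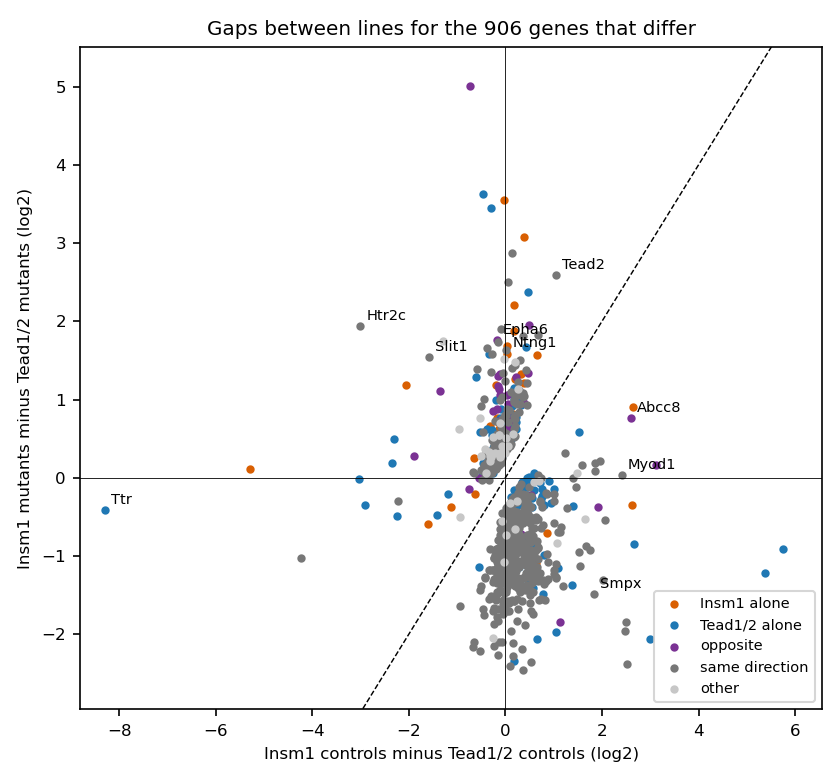
Gap between the lines in controls (x axis, log2) and in mutants (y axis, log2) for the 906 genes called in the difference; the dashed line marks an equal gap, at which there would be no difference. Most genes lie near 0 on the x axis, while Ttr, Htr2c, Myod1 and Abcc8 have control gaps of -8.30, -3.01, 2.41 and 2.60.

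Several of the control gaps lay close to Tead2. In chromosome order, 8 of the 50 tested genes nearest Tead2 were called between the control lines, against 1012 of the 20258 tested genes that could be placed, and 3 of 50 around Insm1 and 0 of 50 around Tead1. They included Ftl1, a ferritin subunit, higher in the Insm1 controls by 2.12 ± 0.17, and Aldh16a1, higher in the Tead1/2 controls by 1.01 ± 0.08. Abcc8 and Myod1 followed 53 and 56 tested genes beyond Tead2 on a chromosome with 1512 tested genes. Whether linkage to the floxed allele has a part in these gaps was not tested.

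Promoter letters were read for the genes of these classes because TEAD factors and myogenic bHLH factors have known short elements. The 250 bases before each start in RefSeq's mouse annotation (GRCm38.p6) were searched on both strands for CATTCC, the M-CAT core, and for the E-boxes CAGCTG and CACCTG. Each motif was counted on its own, also where matches overlapped. CATTCC was in 14.6% of 646 promoters of the same direction class, 11.1% of 144 of Tead1/2 alone, 11.4% of 44 of Insm1 alone and 10.8% of 37 of the opposite class, against 11.6% of 19493 promoters of tested genes. CAGCTG was in 17.2%, 13.9%, 18.2% and 29.7% of the same classes, against 13.2%. CACCTG was in 19.7%, 22.2%, 11.4% and 8.11%, against 16.8%. Several promoters can belong to 1 gene, and a match is a description of letters only. The promoters below were picked after their values were seen, to show a match in a gene of each kind. They are Ntng1 (higher under Insm1 loss), Epha6 (opposite) and the muscle genes Tnnc1 and Chrna1 (higher under both deletions, more so under Tead1/2 loss). In that order they lie at chr3:110143473-110143722 (minus strand), chr16:60605532-60605781 (minus strand), chr14:31208062-31208311 (plus strand) and chr2:73580339-73580588 (minus strand). Capitals mark the matches, and each is written 5′ to 3′ in the direction of the gene.
Ntng1: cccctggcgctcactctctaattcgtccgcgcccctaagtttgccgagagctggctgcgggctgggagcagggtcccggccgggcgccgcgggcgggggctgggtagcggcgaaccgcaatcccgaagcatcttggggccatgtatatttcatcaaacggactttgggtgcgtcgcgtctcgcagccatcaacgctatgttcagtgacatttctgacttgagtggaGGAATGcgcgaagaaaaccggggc
Epha6: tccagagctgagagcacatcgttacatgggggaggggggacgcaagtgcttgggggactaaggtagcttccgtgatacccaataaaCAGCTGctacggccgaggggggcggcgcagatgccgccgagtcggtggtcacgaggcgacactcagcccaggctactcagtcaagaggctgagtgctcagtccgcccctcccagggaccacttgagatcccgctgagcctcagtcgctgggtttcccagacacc
Tnnc1: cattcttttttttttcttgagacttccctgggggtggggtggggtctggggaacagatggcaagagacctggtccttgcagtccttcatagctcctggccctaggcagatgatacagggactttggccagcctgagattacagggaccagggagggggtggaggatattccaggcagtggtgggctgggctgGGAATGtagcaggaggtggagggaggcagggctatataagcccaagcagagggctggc
Chrna1: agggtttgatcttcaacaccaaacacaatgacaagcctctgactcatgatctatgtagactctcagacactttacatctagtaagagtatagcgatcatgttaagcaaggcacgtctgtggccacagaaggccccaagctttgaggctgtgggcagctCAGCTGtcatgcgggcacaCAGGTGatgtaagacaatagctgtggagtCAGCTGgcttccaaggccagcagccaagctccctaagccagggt
Tnnc1, cardiac and slow troponin C, and Chrna1 differed by -2.29 ± 0.31 and -2.01 ± 0.36. The Ntng1 and Tnnc1 promoters each held 1 M-CAT core, Epha6 held 1 CAGCTG, and Chrna1 held 3 E-boxes.

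The same contrast was available at P2 in bulk RNA-seq of other animals (4 mutants in each line, with 4 controls in the Insm1 line and 3 in the Tead1/2 line). There the lines were separate batches per the labels, so line and batch cannot be told apart. The library labelled Tead1/2 mutant 4 went against its label, with Myod1 at 0.255 CPM, against 5.51, 6.69 and 5.55 CPM in the other 3 mutants and 0.0746, 0.119 and 0.107 CPM in the controls, and its Tead2 level of 25.9 CPM was above all 3 controls. No gene of 20837 tested was called in the difference (0%) by edgeR, with 1435 genes at an unadjusted p under 0.05, and DESeq2 called 17. Of 809 genes called at P7 and tested at both ages, 335 (41.4%) had the same sign of the difference at P2, against 46.8% of all 17427 genes. Without the library labelled Tead1/2 mutant 4 it was 366 of 809 (45.2%) against 48.1%. By class, with all 15 libraries, the same sign was seen for 213 of 557 genes of the same direction class (38.2%) and 65 of 144 of Tead1/2 alone (45.1%). It was seen for 24 of 42 of Insm1 alone (57.1%) and 17 of 29 of the opposite class (58.6%). Without the library labelled Tead1/2 mutant 4 the shares were 43.7%, 46.5%, 54.8% and 58.6% in the same order of classes.

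The control gap of Myod1 was also called at P2. Myod1 stood at 2.51, 3.06, 0.902 and 0.869 CPM in controls of the Insm1 line, against the Tead1/2 control levels above, a gap of 4.18 (adjusted p = 0.020). Mutants of the Insm1 line had 5.19, 5.79, 5.96 and 6.73 CPM. Tead2 was again higher in Insm1 controls, at 79.3 to 90.0 CPM against 22.3 to 25.7 CPM. Insm1 had a difference of -2.41 ± 0.36 at P2 (adjusted p = 0.13), and -2.50 without the library labelled Tead1/2 mutant 4 (adjusted p = 0.052). Otx1 was at 1.56 to 3.15 CPM in Insm1 controls and 0.0635 to 0.317 CPM in Insm1 mutants, and its difference was -1.11 ± 0.99, or 0.20 without that library. Epha6 rose by 0.44 ± 0.09 under Insm1 loss (adjusted p = 0.036), and its change of 0.21 ± 0.10 under Tead1/2 loss was not called and did not have the sign of P7. Chrna3 had changes of -0.56 ± 0.23 and -1.08 ± 0.24, neither called, and a difference of 0.52 ± 0.33 with the sign of P7 (unadjusted p = 0.14, adjusted p = 0.83), and of 0.93 without that library (unadjusted p = 0.00011, adjusted p = 0.22). Ntng1 stood at 16.9 to 22.8 CPM in all 15 libraries.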

How the data were processed

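The deposited P7 files hold raw counts of transcripts per barcode with no cell filter, and their gene tables name GRCm39. The 2 deposited P2 tables, 1 for each line, hold expected counts, which were rounded, and 92 spike-in entries were left out. Each table carries the name of the other line, against the labels, and samples were taken from the column names that the labels give. RSEM 1.3.3 and STAR 2.7.9a are named per the submitters' processing notes, and no label says which of the named tools made the single-cell counts. Samples were matched by column name, with 0 unmatched columns. Counts were summed per library and fitted in edgeR 4.0.16 (R 4.3.3) with TMM factors, filterByExpr and 1 term for each of the 4 groups, with Benjamini-Hochberg adjustment over all genes tested. DESeq2 1.42.0 was an alternative. The fit was tested on simulated data. Replicate pairs differed beyond sampling noise (chi-square per degree of freedom 36.0 to 90.4), and p-values rest on the spread between 2 or 3 animals a group. Residuals of same-numbered libraries correlated at -0.12 to 0.135. With 2 controls a group this check cannot exclude a pairing by number, and the number also goes with the dissection. The main fit had no term for it. Named genes were the largest changes of each class with a mean of at least 10 CPM in 1 group (up to 6 each way for Insm1 alone and Tead1/2 alone, 6 for opposite, 4 each way for same direction and for the controls), the targets and paralogs, and up to 4 called genes of each list. The comparison, the gene lists and the classes were chosen with earlier results of these data known.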

Additional observations from a re-analysis of the deposited data

Results flagged for a closer look

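The difference between the deletions at P7 was itself the test of unequal change, and 906 genes passed it. Within these, the named genes that moved in opposite directions had differences of 1.94 for Epha6, -1.84 for Abcc8, 1.27 for Ano3, 1.12 for Dlgap2, 1.08 for Olfm3, -1.06 for F13a1, 0.65 for Gad1 and 0.54 for Pax2 on the log2 scale. Among 9 genes examined in groups of 4 libraries at P2, a total of 27 groups, 2 had a library far from the rest, where chance gives about 1 in 20. Chrna3 stood at 21.6 CPM in the library labelled Tead1/2 mutant 4 and at 8.27 to 10.1 CPM in the other 3, and Ttr at 55.1 CPM in Tead1/2 mutant 2 and at 1.14 to 1.66 CPM in the other 3.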

How the results depend on the processing

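The 906 genes became 2132 with DESeq2 (880 shared), 259 from barcodes of at most 20000 transcripts, 43 from barcodes with under 3 of 55 muscle genes, 51 with under 3 of 24 muscle-restricted genes and 229 with a sex term, and 195 to 1192 without 1 library. Insm1 deletion calls were 3659 and 5283 in those muscle-free sums (5762 to 8903 without 1 library), and Tead1/2 deletion calls 5997 without the 55 genes (8764 to 11964 without 1 library). Control line calls were 2378 with DESeq2, 397 without the 55 genes and 460 with a sex term, and 217 to 1462 without 1 library. At P2 the difference gave 17 genes with DESeq2, 11 with no low-count filter and 0 to 8 without 1 library. A replicate block by dissection gave 844 genes for the difference at P7, and a block by library number gave 729, with 734 for the control lines. The block gave 0 at P2. Without the 24 genes' barcodes the difference reversed to 0.20 for Smpx, 0.22 for Tead4, 0.0914 for Casq2, 0.45 for Chrnb1, 0.21 for Slc17a7 and 0.15 for Meg3. Without the 55 it reversed to 0.0322 for Cox7b, 0.19 for Tead4, 0.79 for Mymk, 0.11 for Des, 0.31 for Ryr1, 0.28 for Chrnb1 and 0.0912 for Slc17a7. The Tead1/2 change reversed without the 24 to 0.25 for Cfap61, -0.19 for Cox7b, 0.0597 for Olfm3, -0.90 for Slc17a7, 0.12 for Gad1 and 0.22 for Pax2. Without the 55 it was -0.31 for Cox7b, 0.25 for Olfm3, -0.79 for Slc17a7, 0.33 for Gad1, 0.45 for Pax2 and 0.45 for Prmt8, and -0.61 for Slc17a7 at the 20000 limit. The sums here called muscle-free hold fewer transcripts and are not free of muscle transcripts. The 55-gene rule also removed 35.2 to 40.9% of control barcodes, and the cause of these changes was not tested.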
